A study of Homo sapiens with 6 samples.

Results

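The levels of 9 genes known for their roles in blood progenitors and myeloid leukaemia, MYC, MYB, FLT3, KIT, GATA2, RUNX1, LMO2, CD34 and WT1, were examined in 6 RNA sequencing libraries. They were taken by symbol from the 60612 Ensembl identifiers of the count matrix, and all 9 were found. The rule names genes and uses no measured value, although it was written with earlier results of these data known. The cells were U937, an established human line of monocyte-like cells first grown from a histiocytic lymphoma, labelled as acute myeloid leukemia with genotype WT. Every library came from cells kept without serum in RPMI-1640 for the 36 h of the experiment. The 3 B2 libraries received B2, a compound known here by that name only, at 1 µM, and the 3 control libraries received the DMSO vehicle. U937 is a single line, and the title of the series names S100A9, a calcium-binding protein of myeloid cells, as the target. The libraries are numbered 1, 2 and 3 in each group. What a number marks is not stated, nor is it said that cultures were separate, so the p-values rest on the library-to-library spread alone, and part or all of that may be technical.

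The genes divide by role. FLT3 and KIT are receptor tyrosine kinases on progenitor cells that bind the FLT3 ligand and stem cell factor and signal to growth through RAS, PI3K and STAT5. MYC, MYB, RUNX1 and GATA2 are transcription factors, LMO2 is an adaptor that joins such factors into complexes through LDB1, CD34 is a surface glycoprotein of stem and progenitor cells, and WT1 is a zinc finger factor that many acute myeloid leukaemias express. MYC drives growth and ribosome production, and MYB holds precursors in an immature, dividing state.

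Library totals ran from 61150740 to 78431054 counts, and levels are given in CPM, which are counts put on a common library size with TMM factors that correct the totals for composition. The labelled cell type was checked against 13 myelomonocytic marker genes, all of which were detected, with summed levels of 6359 to 11252 CPM in B2 and 6077 to 11929 CPM in DMSO, although MPO, myeloperoxidase, stayed at 0.281 to 1.67 CPM. Libraries with the same number resembled each other. Of the 17224 genes that passed the filter on low counts, 461 (2.68%) differed between the numbers at an adjusted p below 0.05, and 369 of these were highest in number 3. By edgeR no gene passed that threshold between B2 and DMSO (0%), with 85 genes (0.493%) at an unadjusted p below 0.05 and 1 gene called by DESeq2. The sum of 18 monocyte and macrophage markers was 143 to 240 CPM in numbers 1 and 2 against 1786 and 2011 CPM in number 3.

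Per kilobase of exon, which allows levels to be compared between genes, the 9 genes ran from abundant to barely detected. MYC was the most abundant, with a mean of 59.6 ± 8.55 CPM per kilobase (SD, n = 6) and a range of 43.5 to 66.3 over the libraries. LMO2 followed at 45.3 ± 5.66 (range 42.3 to 56.8) and MYB at 23.1 ± 14.0 (range 13.7 to 50.6). RUNX1 came next at 6.28 ± 2.68 (range 3.70 to 10.0). The ranges of MYC and LMO2 overlapped, and that of MYB reached the range of LMO2 through DMSO library 2 alone. GATA2 at 0.724 ± 0.247 and FLT3 at 0.464 ± 0.302 overlapped each other and lay below every RUNX1 value, and KIT at 0.0687 ± 0.0195 lay below every FLT3 value. CD34 at 0.0118 and WT1 at 0.00209 were at the bottom. The 4 highest were thus transcription regulators, but the transcription factors GATA2 and WT1 were scarce, as were both receptors and the surface antigen. The order was the same with the longest annotated transcript as the length, but the ranges of MYB (20.5 to 75.7) and RUNX1 (7.92 to 21.4) then overlapped.

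**Figure D1:**
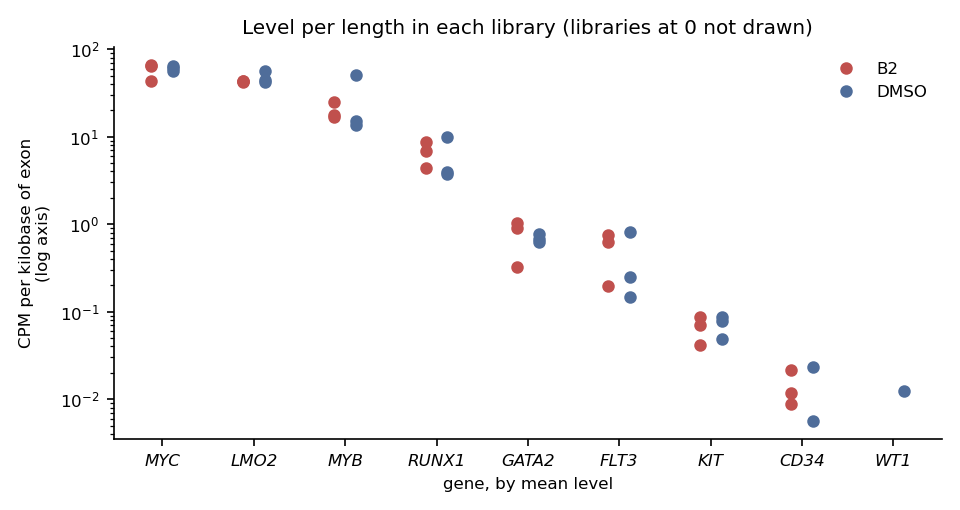
Level of each of the 9 genes in each library, in CPM per kilobase of exon on a log axis, with genes ordered by mean level and points coloured by treatment. MYC, LMO2 and MYB occupy the top, from 13.7 to 66.3, and KIT, CD34 and WT1 lie below 0.1 in every library where they were counted.

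FLT3 (ENSG00000122025, chr13:28003274-28100592, minus strand, GRCh38) is among the genes most often mutated in acute myeloid leukaemia. Its level was 2.62, 3.11 and 0.809 CPM in B2 libraries 1, 2 and 3 and 0.609, 3.41 and 1.03 CPM in DMSO libraries 1, 2 and 3, from 34 to 265 counts a library. Both number 2 libraries and B2 library 1 were high, the other three were low, and the groups overlapped. The group means were 2.18 ± 1.21 CPM in B2 and 1.68 ± 1.51 CPM in DMSO (SD, n = 3), a log2 fold change of 0.37 (SE 0.72, 95% interval -1.28 to 2.02, edgeR quasi-likelihood adjusted p = 1.0). Within number 1, FLT3 was 4.29-fold higher in the B2 library, whereas within numbers 2 and 3 the log2 differences were -0.14 and -0.35. The fitted value was 1.37 without DMSO library 2 and -0.02 without DMSO library 1.

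KIT (ENSG00000157404, chr4:54657918-54740715, plus strand), the receptor for stem cell factor, was counted 14 to 38 times a library. Its level was 0.393, 0.479 and 0.231 CPM in B2 libraries 1, 2 and 3 and 0.430, 0.489 and 0.271 CPM in the DMSO libraries. The lowest value in each group was in number 3 and the highest in number 2, and the groups overlapped almost entirely. KIT averaged 0.368 ± 0.126 CPM in B2 and 0.397 ± 0.113 CPM in DMSO (SD, n = 3), with a log2 fold change of -0.10 (SE 0.57, 95% interval -1.41 to 1.20, edgeR adjusted p = 1.0). The interval is wide, from 0.375-fold to 2.30-fold. The estimate was 0.14 without B2 library 3, 0.04 without DMSO library 2 and -0.33 without B2 library 2.

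MYC (ENSG00000136997, chromosome 8, 3 exon blocks) was the second most even of the 7 tested genes, with a highest library 1.52 times the lowest. Its level was 195, 199 and 131 CPM in B2 libraries 1, 2 and 3 and 184, 193 and 171 CPM in the DMSO libraries. B2 library 3 stood below the other five, and the groups overlapped. The means of 175 ± 38.4 CPM in B2 and 183 ± 11.2 CPM in DMSO (SD, n = 3) gave a log2 fold change of -0.06 (SE 0.26, 95% interval -0.67 to 0.54, edgeR adjusted p = 1.0). The log2 differences within numbers 1, 2 and 3 were 0.09, 0.04 and -0.39, and on the linear scale the interval runs from 0.630-fold to 1.45-fold. Leaving out B2 library 3 turned the estimate to 0.11.

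MYB (ENSG00000118513, chr6:135181315-135219173, plus strand) varied far more. Its level was 91.9, 138 and 98.0 CPM in B2 libraries 1, 2 and 3 and 75.4, 278 and 82.1 CPM in the DMSO libraries. DMSO library 2 stood far above the rest, B2 library 2 was second, and the groups overlapped. MYB averaged 109 ± 24.8 CPM in B2 and 145 ± 115 CPM in DMSO (SD, n = 3), a log2 fold change of -0.41 (SE 0.51, 95% interval -1.58 to 0.75, edgeR adjusted p = 1.0). The log2 differences within numbers were 0.29, -1.02 and 0.26, so the negative estimate came from number 2. It was 0.44 without DMSO library 2.

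RUNX1 (ENSG00000159216, chr21:34787801-36004667, minus strand), the DNA-binding partner of CBFB, was 107, 136 and 68.4 CPM in B2 libraries 1, 2 and 3 and 61.8, 156 and 57.6 CPM in the DMSO libraries. As with MYB, the number 2 libraries were the highest of each group, and the groups overlapped. The means were 104 ± 34.0 CPM in B2 and 91.7 ± 55.5 CPM in DMSO (SD, n = 3), with a log2 fold change of 0.18 (SE 0.45, 95% interval -0.84 to 1.20, edgeR adjusted p = 1.0). The log2 differences within numbers were 0.79, -0.19 and 0.25, and the estimate moved to 0.76 without DMSO library 2 and to -0.07 without DMSO library 3.

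GATA2 (ENSG00000179348, chr3:128479427-128493185, minus strand), a zinc finger factor of stem, mast and myeloid progenitor cells, was 4.65, 4.01 and 1.45 CPM in B2 libraries 1, 2 and 3 and 2.99, 3.45 and 2.82 CPM in the DMSO libraries. B2 held both the highest and the lowest value, with DMSO between them. The means of 3.37 ± 1.69 CPM in B2 and 3.09 ± 0.326 CPM in DMSO (SD, n = 3) differed by 0.13 on the log2 scale (SE 0.46, 95% interval -0.92 to 1.17, edgeR adjusted p = 1.0). The log2 differences within numbers 1, 2 and 3 were 0.64, 0.22 and -0.96, and the estimate was -0.19 without B2 library 1.

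LMO2 (ENSG00000135363, chr11:33858576-33892289, minus strand) was the most even of the 7 tested genes, with a highest library 1.34 times the lowest. Its level was 134, 132 and 134 CPM in B2 libraries 1, 2 and 3 and 138, 131 and 177 CPM in the DMSO libraries. DMSO library 3 was the one high value, and the other five lay within a few CPM of each other. LMO2 averaged 133 ± 0.965 CPM in B2 and 149 ± 24.5 CPM in DMSO (SD, n = 3), a log2 fold change of -0.15 (SE 0.24, 95% interval -0.71 to 0.40, edgeR adjusted p = 1.0), which was -0.01 without DMSO library 3. Of the factors that LMO2 complexes are built from, LDB1 (232 to 333 CPM), LYL1 (118 to 224 CPM) and TCF3 (127 to 214 CPM) were well expressed, whereas TAL1 was at or below 0.149 CPM and GATA1 had no count.

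CD34 and WT1 did not pass the filter on low counts and were not tested. CD34 (ENSG00000174059, chr1:207880972-207911402, minus strand) had 8, 6 and 12 counts in B2 libraries 1, 2 and 3 and 12, 0 and 4 counts in the DMSO libraries. WT1 (ENSG00000184937, chr11:32387775-32435630, minus strand) had 4 counts in DMSO library 2 and none elsewhere. A count of 0 allows a level of up to 3 counts, which is 0.0386 CPM in DMSO library 2 and 0.0537 CPM in DMSO library 1, and these limits cover counting error only. The value 4 occurred 6465 times over the table against 3144 times for 3 and 2022 times for 5. The 4 counts of WT1, and those of CD34 in DMSO library 3, are thus a value the table holds more often than its neighbours.

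**Figure D2:**
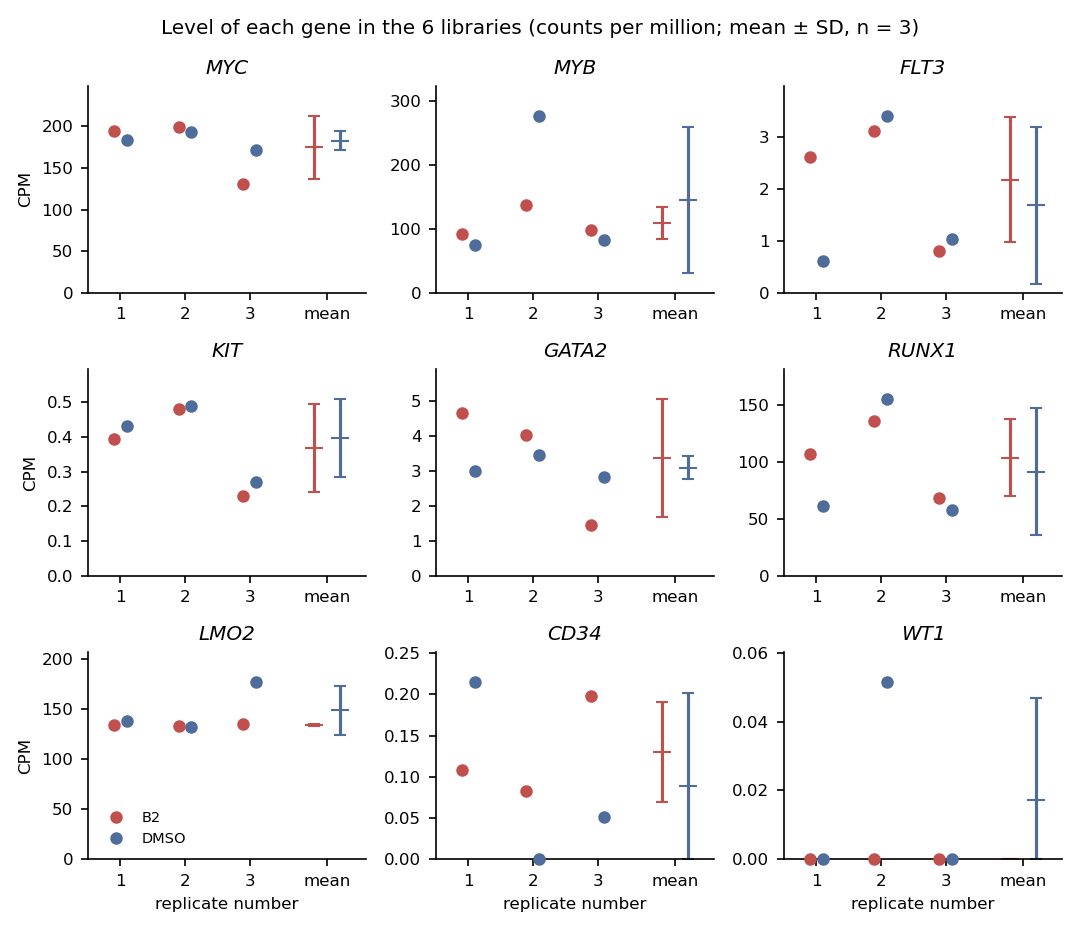
Level of each gene in CPM (vertical axes from 0) by replicate number, with B2 and DMSO libraries in separate colours, and the mean ± SD of each group (n = 3, lower bars stopped at 0) at the right of each panel. MYB, FLT3 and RUNX1 are highest in the number 2 libraries, with MYB at 278 CPM in DMSO library 2, while LMO2 departs from about 133 CPM only in DMSO library 3.

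Across the set, 0 of 7 tested genes changed between B2 and DMSO by edgeR (background 0%), 0 had an unadjusted p below 0.05 (background 0.493%), and none passed with DESeq2 or limma-voom. Log2 fold changes were positive for FLT3, RUNX1 and GATA2 and negative for the other four, with a median of -0.06 against -0.08 over all genes tested. That median was 0.18 without DMSO library 2, 0.14 without B2 library 3 and -0.16 without B2 library 1. In 0 of 9 genes did the B2 and DMSO values separate without overlap, against 3.56% of all genes tested. No gene of the set had the same sign of difference in all 3 numbers except KIT, whose 3 differences ran from -0.23 to -0.03. Of the 7 tested genes, 6 changed sign under at least 1 alternative, LMO2 being the exception. In bulk RNA, a smaller share of cells that express a gene and less RNA per cell cannot be told apart.

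**Figure D3:**
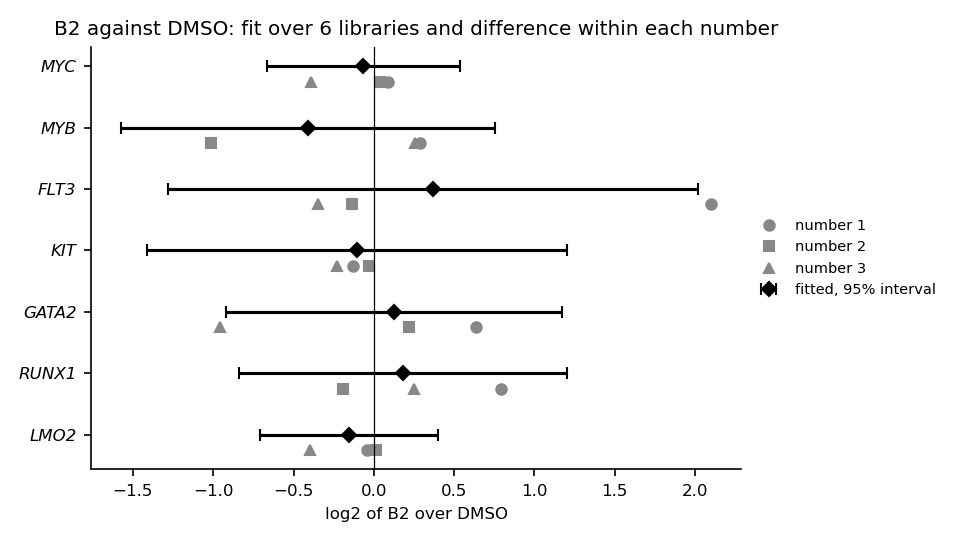
Log2 of B2 over DMSO for the 7 tested genes, as the edgeR estimate with its 95% interval (diamonds and bars, 6 libraries) and as the difference within each replicate number (grey symbols, 1 library of each group). Every interval crosses 0, and FLT3 in number 1, at 2.10, lies furthest from 0.

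By replicate number, MYB had means of 83.6, 208 and 90.1 CPM in numbers 1, 2 and 3 (n = 2 each), and its log2 difference of number 2 over number 1 was 1.28 (SE 0.37). RUNX1 had means of 84.4, 146 and 63.0 CPM, with number 3 under number 2 by a log2 difference of -1.23 (SE 0.33). FLT3 had means of 1.61, 3.26 and 0.920 CPM and a log2 difference of -1.81 (SE 0.58) between numbers 3 and 2. None of these passed edgeR's test of the number over all genes, with adjusted p of 0.106 for MYB, 0.107 for RUNX1 and 0.161 for FLT3, so 0 of 7 were called against 2.68% of all genes. The calls depended on the tool and filter: MYB and RUNX1 passed with DESeq2 (adjusted p = 0.0218 and 0.0223), which called 9.71% of all genes, and with limma-voom (adjusted p = 0.0356 and 0.0425), which called 7.48%. MYB, FLT3 and RUNX1 passed edgeR at a minimum count of 50 (adjusted p = 0.0122, 0.0240 and 0.0287), where 15.6% of all genes were called. All 3 also passed edgeR without B2 library 1, where 22.9% of all genes were called, and MYB alone passed without B2 library 2 (adjusted p = 0.0342, with 9.61% called). These fits called more of all genes too, and the smallest adjusted p was 0.662 without DMSO library 2, where 2.86% of all genes were called.

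GATA2, KIT, MYC and LMO2 differed less between the numbers. GATA2 averaged 3.82, 3.73 and 2.14 CPM in numbers 1, 2 and 3 and KIT 0.411, 0.484 and 0.251 CPM. MYC averaged 189, 196 and 151 CPM and LMO2 136, 132 and 155 CPM. Adjusted p by edgeR for the number were 0.390, 0.689, 0.595 and 0.824 in the same order. The highest mean was in number 2 for 5 of the 7 tested genes, as it was for 43.4% of all genes tested.

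The libraries also differed in how gene levels followed base composition. The part of this in the values of the 7 tested genes was not tested. Across 17015 genes, Spearman's correlation between exon GC content and the deviation of a library from the gene's mean was 0.48 in DMSO library 1 and -0.55 in DMSO library 2, against 0.20, -0.27 and 0.04 in B2 libraries 1, 2 and 3 and 0.09 in DMSO library 3. MYB, FLT3 and KIT have exon GC contents of 43.9%, 43.1% and 42.6%, RUNX1 47.1%, MYC 53.9%, LMO2 55.5% and GATA2 59.7%. With a smooth GC trend removed from each library, an adjustment chosen after seeing the data, MYB was 92.0, 118 and 100.1 CPM in B2 and 110, 184 and 90.5 CPM in DMSO. FLT3 became 2.69, 2.69 and 0.823 CPM in B2 and 0.892, 2.20 and 1.13 CPM in DMSO, and RUNX1 100.2, 118 and 70.5 CPM in B2 and 81.6, 121 and 61.6 CPM in DMSO. The number 2 libraries remained the highest or joint highest of their group for all 3 genes, with smaller gaps. The log2 difference of number 2 over number 1 for MYB was 0.56 in place of 1.28, and the smallest adjusted p over the 7 genes was 0.0986 (RUNX1), so that 0 of 7 were called against 3.63% of all genes. KIT was 0.413, 0.418 and 0.234 CPM in B2, with number 2 barely the highest, and 0.628, 0.312 and 0.294 CPM in DMSO, where number 1 became the highest. Its log2 difference of number 2 over number 1 was -0.48 in place of 0.24. The same difference for GATA2 was 0.28 in place of -0.04.

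**Figure D4:**
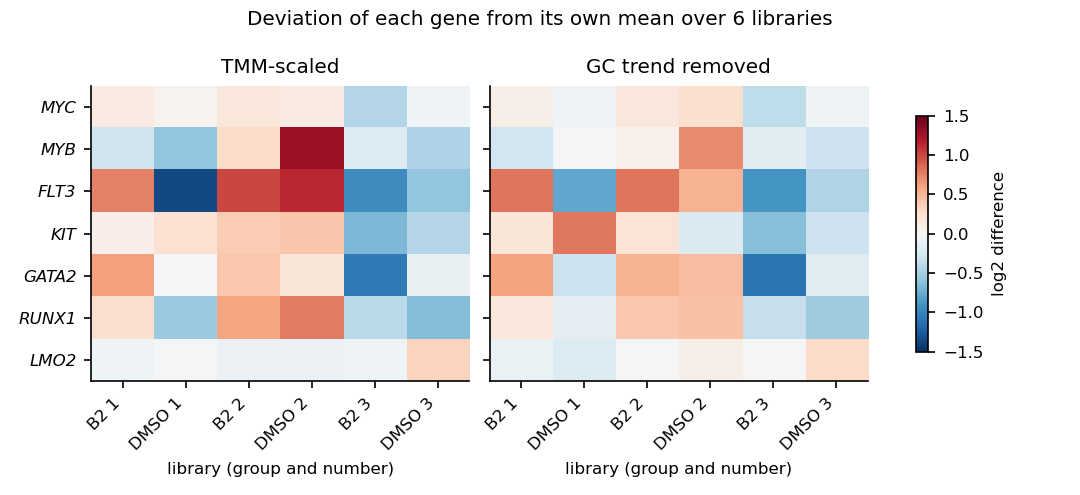
Log2 deviation of each tested gene from its own mean over the 6 libraries (colour scale from -1.5 to 1.5), libraries ordered by replicate number, with TMM scaling at left and with the GC trend removed at right. The red cells of MYB, FLT3 and RUNX1 in the number 2 libraries are paler at right, where MYB in DMSO library 2 falls from 278 to 184 CPM.

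The DNA just upstream of MYB, FLT3 and RUNX1 is printed because these 3 genes had the smallest p for the number and shared their highest values in number 2. The 250 bases before the RefSeq start (GRCh38.p14) are given 5′ to 3′ on the strand of the gene, at chr6:135181058-135181307 (plus strand) for MYB, chr13:28100577-28100826 (minus strand) for FLT3 and chr21:34888700-34888949 (minus strand) for RUNX1, whose start in that table lies inside the span given to the gene by GENCODE. Capitals mark a match to one of the searched motifs.
MYB: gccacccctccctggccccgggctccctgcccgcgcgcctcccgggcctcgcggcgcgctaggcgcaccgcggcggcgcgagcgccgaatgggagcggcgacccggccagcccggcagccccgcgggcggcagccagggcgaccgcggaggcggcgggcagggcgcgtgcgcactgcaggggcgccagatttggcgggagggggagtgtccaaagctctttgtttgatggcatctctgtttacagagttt
FLT3: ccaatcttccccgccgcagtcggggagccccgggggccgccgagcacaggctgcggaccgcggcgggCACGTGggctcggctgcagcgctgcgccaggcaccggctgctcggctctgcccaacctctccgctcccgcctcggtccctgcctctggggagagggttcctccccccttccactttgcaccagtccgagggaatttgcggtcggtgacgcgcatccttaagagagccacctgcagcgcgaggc
RUNX1: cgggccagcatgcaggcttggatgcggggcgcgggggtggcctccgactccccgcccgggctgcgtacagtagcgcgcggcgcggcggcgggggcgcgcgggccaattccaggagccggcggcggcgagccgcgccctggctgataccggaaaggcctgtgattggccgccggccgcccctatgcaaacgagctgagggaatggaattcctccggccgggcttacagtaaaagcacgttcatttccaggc
Their GC contents were 75.6%, 72.0% and 71.2%, against a median of 58% over 35116 windows of the same length. The motifs searched on both strands were the E-box CACGTG bound by MYC with MAX, the RUNX motif TGTGGT, the MYB motif TAACNG and the GATA motif AGATAA, none of which contains another. They occurred in 6.34%, 10.98%, 17.6% and 9.17% of all windows. FLT3 held the 1 match of these 3 windows, an E-box 183 bases before the start. Windows were at hand for 7 of the 9 genes, and the one further match was TAACCG, 228 bases before the third WT1 start. A match is only a run of letters.

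The network around MYC was measured through 16 tested partners and antagonists and 17 tested target genes, and 0 of either list changed with B2 (background 0%). In the network, 3 estimates were positive and 13 negative with a median log2 fold change of -0.12, and among the targets 3 were positive and 14 negative with a median of -0.20, beside -0.08 and 10689 of 17224 negative over all genes. Without DMSO library 1 the target median turned to 0.08 and the network median was -0.004, while without B2 library 3 the target median was -0.05. MAX, the obligate partner of MYC, ranged from 69.5 to 82.2 CPM over all 6 libraries. NPM1, a nucleolar chaperone, was 374, 399 and 316 CPM in B2 and 570, 681 and 318 CPM in DMSO, a log2 fold change of -0.53 (SE 0.33). NCL, nucleolin, was 317, 421 and 190.1 CPM in B2 and 142, 680 and 189 CPM in DMSO, again with its highest value in DMSO library 2. Of the antagonists, MXD4 went the other way, lowest in number 2 at 47.6 CPM in B2 and 40.0 CPM in DMSO and at 104 to 113 CPM in number 3. Number tests gave adjusted p of 0.106 for MXD4 and 0.0849 for NCL, and none in either list passed.

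Among 12 tested relatives, cofactors and targets of MYB, 6 estimates were positive and 6 negative (median -0.01), with 0 called between treatments. One, BCL2, an anti-apoptotic target of MYB, differed between the numbers (adjusted p = 0.0197), 1 of 12 against 2.68% of all genes. BCL2 was 22.4, 27.5 and 5.23 CPM in B2 libraries 1, 2 and 3 and 9.48, 47.6 and 6.25 CPM in the DMSO libraries, highest in number 2 and lowest in number 3 in both groups. KMT2A, a histone methyltransferase, was 16.7, 23.8 and 14.1 CPM in B2 and 6.09, 51.5 and 9.79 CPM in DMSO (number adjusted p = 0.0969). The relative MYBL2, a cell-cycle regulator, was 287 to 759 CPM and highest in DMSO library 1. ELANE, neutrophil elastase, ranged from 625 to 1307 CPM, also with its highest value in DMSO library 1.

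Of 26 ligand and signalling genes of FLT3 and KIT, all were tested, 9 estimates were positive and 17 negative (median -0.08), and 0 were called by treatment or number. FLT3LG, the FLT3 ligand, was 3.19 to 6.70 CPM. KITLG, stem cell factor, was 0.650, 0.958 and 0.363 CPM in B2 and 0, 0.322 and 0.554 CPM in DMSO, a log2 fold change of 1.15 (SE 1.06) with overlapping groups. Downstream signalling genes ranged widely in level, with GRB2 at 284 to 444 CPM, PIK3CD at 277 to 445 CPM and STAT5A at 114 to 212 CPM. Lower were PIK3R1 at 9.05 to 42.7 CPM, CBLB at 6.38 to 12.8 CPM and SPRY4 at 3.66 to 6.22 CPM. PTPN11, the phosphatase SHP2, was likewise highest in DMSO library 2, with 24.7, 33.6 and 24.4 CPM in B2 and 15.1, 86.6 and 20.4 CPM in DMSO. PIM1, a kinase induced by STAT5, was 368 and 458 CPM in number 3 against 181 to 244 CPM in the other libraries, which did not pass the test of the number (adjusted p = 0.113).

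Of 31 further stem and progenitor transcription factors, 26 were tested, 9 with positive and 17 with negative estimates (median -0.07), and 0 were called by treatment or number. ERG, an ETS factor of stem cells, was 3.75, 4.56 and 0.594 CPM in B2 and 2.29, 4.50 and 1.33 CPM in DMSO (number adjusted p = 0.0662). It was lowest in number 3 in both groups, whereas FLT3 in DMSO was lowest in number 1. CBFB, the partner of RUNX1, was 24.0, 36.4 and 23.1 CPM in B2 and 13.0, 69.3 and 22.8 CPM in DMSO. The myeloid factors CEBPA (386 to 772 CPM), SPI1 (198 to 426 CPM) and GFI1 (248 to 399 CPM) were detected at high counts in every library.

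The surface and stem signature list held 33 genes of the table, of which 19 were tested and 14 were not. CD34 was in the company of PROM1, THY1, TEK, CD96, CD7, AVP, CRHBP, HOPX, MMRN1 and FAM30A, each with no count except 1 library of PROM1, at 0.0515 CPM. CD33, a surface protein of myeloid cells (86.0 to 115 CPM), and the surface proteins CD99 (223 to 420 CPM) and CD244 (56.8 to 70.0 CPM) were well expressed. By treatment 0 were called, with 7 positive and 12 negative estimates (median -0.05). By number 3 of 19 were called, against 2.68% of all genes. ENG, a TGF-beta co-receptor, and EMP1, a membrane protein, were highest in number 3 (adjusted p = 0.0204 and 0.00279), and CDK6, a cell-cycle kinase, was highest in number 2 (adjusted p = 0.0494). ENG was 208, 174 and 537 CPM in B2 and 303, 149 and 544 CPM in DMSO. CDK6, like MYB, peaked in DMSO library 2, at 8.48, 17.6 and 9.29 CPM in B2 and 7.76, 29.05 and 6.94 CPM in DMSO.

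Partners and targets of WT1 were measured through 12 tested genes, with 7 positive and 5 negative estimates (median 0.11) and 0 called. NR5A1, a nuclear receptor gene that WT1 regulates in the gonad, had the smallest p of the list (log2 fold change 1.78, SE 0.60, unadjusted p = 0.0169, edgeR adjusted p = 1.0), at 0.705, 0.452 and 0.363 CPM in B2 and 0.143, 0.180 and 0.116 CPM in DMSO. EGR1, an early response factor that shares DNA motifs with WT1, was 17.3, 36.4 and 5.89 CPM in B2 and 17.8, 33.4 and 14.8 CPM in DMSO, lowest in number 3 in both groups.

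**Figure D5:**
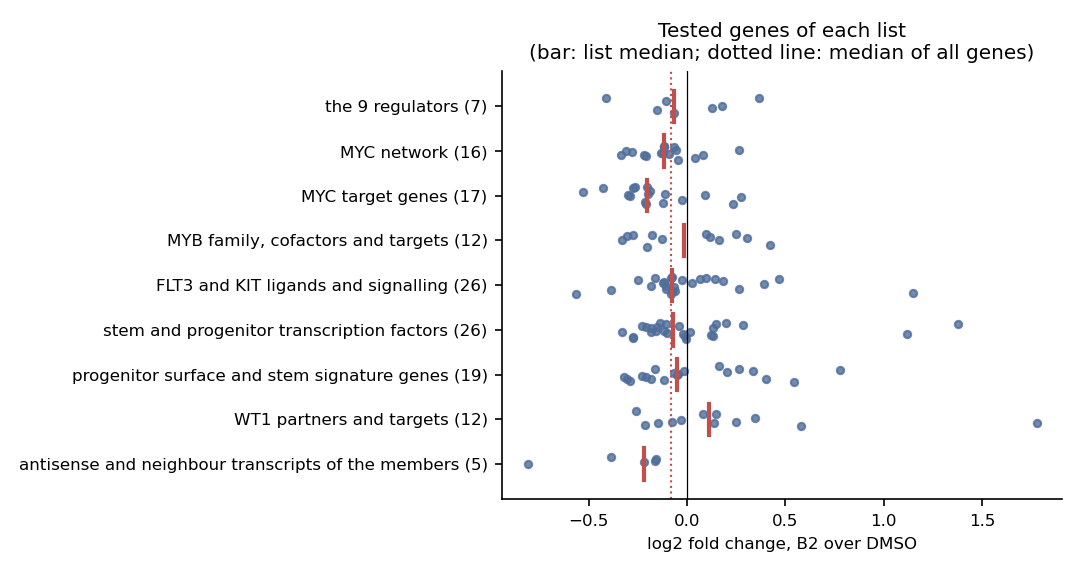
Log2 fold change of B2 over DMSO for each tested gene of the 9 regulators and of 8 companion lists (points), with the median of each list (bar) and of all genes tested (dotted line, -0.08); the number of tested genes is given after each name. List medians lie between -0.22 and 0.11, and the point furthest to the right is NR5A1 at 1.78.

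Neighbouring and antisense transcripts were few. Exons of MYB overlap those of MYB-AS1 by 103 bases (1.88% of its exon length) and exons of WT1 overlap those of WT1-AS by 113 bases (2.75%), both on the opposite strand, and without a stated strand setting such reads cannot be assigned. MYB-AS1 was at or below 0.283 CPM and WT1-AS had no count. GATA2-AS1, whose exons do not overlap those of GATA2, was 6.31, 5.27 and 3.73 CPM in B2 and 6.22, 6.52 and 4.43 CPM in DMSO, lowest in number 3 in both groups, as GATA2 itself was. PVT1, a long noncoding neighbour of MYC, was 15.6 to 28.3 CPM. All 5 tested transcripts of this list had negative estimates (median -0.22) and 0 were called. Over all genes 10689 of 17224 estimates were negative (median -0.08). The 5 were MYB-AS1, GATA2-AS1, CCDC26, the MYC neighbour PVT1, which was also in the MYC network list, and AHI1.

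Over the 6 libraries several genes had profiles like those of others. The values are descriptions of 6 points that share treatment, number and composition. Pearson's r of log2 CPM was 0.97 for MYC and GATA2, 0.94 for FLT3 and RUNX1 and 0.88 for MYC and KIT. It was 0.84 for MYB and RUNX1, 0.78 for KIT and GATA2, 0.73 for MYB and FLT3 and 0.72 for KIT and RUNX1. MYC and MYB had r of 0.32, and LMO2 was negative against every other tested gene, down to -0.62 with RUNX1. The genes with the profile most like each one, among 12874 candidates with a mean of at least 1 CPM (12875 for KIT), were ANAPC5 for MYC (r = 0.995), ZNF26 for MYB (0.999), LHFPL6 for FLT3 (0.998), DZIP1L for KIT (0.998), DCAF12 for GATA2 (0.992), DCUN1D5 for RUNX1 (0.997) and ARHGEF10 for LMO2 (0.978). ZNF26 shows how close such a match is: 2.40, 3.33 and 2.54 CPM in B2 and 2.11, 6.07 and 2.20 CPM in DMSO, with the peak of MYB in DMSO library 2. ARHGEF10 was 56.5 CPM in DMSO library 3 and at or below 0.462 CPM in the other five, so its likeness to LMO2 came from that library. Each of these r is the highest of its candidates over 6 points.

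Markers of other cell types were read beside these profiles. The sum of the 18 monocyte and macrophage markers was high in number 3. Of these, 10 of 14 tested were called by number, against 2.68% of all genes, all highest in number 3, and MRC1 was at 0. SIGLEC1, a macrophage lectin, was 478 and 519 CPM in number 3 against 2.79 to 3.78 CPM elsewhere. The part of these cells or this state in the levels of the 9 genes was not tested. Some markers of other blood lineages were at 0 in all libraries: 4 of 10 for T cells and 3 of 9 for B cells. So were 5 of 11 for red cells and 4 of 8 for mast cells. Among these were CD3D, CD3E and CD3G of T cells, MS4A1 and VPREB1 of B cells, and GYPB and HBB of red cells. In mast cells GATA2 and KIT are otherwise expressed, and of their markers CPA3, CMA1 and FCER1A were at 0. The tryptase TPSAB1 was 117 to 267 CPM. Sums over the lists were 0.312 to 5.28 CPM for T cells and 19.8 to 26.8 CPM for B cells. They were 18.5 to 31.9 CPM for red cells and 139 to 335 CPM for mast cells. The megakaryocyte marker PPBP was 16.2 and 12.3 CPM in number 3 and at or below 0.434 CPM elsewhere. The sum of 9 epithelial markers was 46.7 to 63.5 CPM in B2 and 10.0 to 43.5 CPM in DMSO. The sums did not overlap, but the nearest were 46.7 CPM in B2 library 2 and 43.5 CPM in DMSO library 3. All 9 estimates were positive and 0 were called. Over all genes tested, 6535 of 17224 estimates were positive, and 3.56% of single genes did not overlap between the groups.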

How the data were processed

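RNA from 6 U937 libraries (3 B2, 3 DMSO) was analysed from 1 table. The authors deposited estimated counts (expected counts) for 60612 Ensembl identifiers, not normalized. All were whole numbers, and rounding them left every value as it was. Reads were aligned with HISAT2 2.0.4 per the submitters' processing notes. How reads were counted, and on which build, annotation and strand, is not given in the sources used here. Symbols matched for 60401 identifiers in a gene name table and 187 more from GENCODE 29, which also gave positions, exon lengths and GC content (GRCh38).

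Genes were kept by filterByExpr in edgeR 4.0.16 (R 4.3.3) at a minimum count of 10, scaled with TMM, and tested with glmQLFit and glmQLFTest, with Benjamini-Hochberg adjustment over all 17224 genes and a threshold of 0.05. A second test took the replicate number with treatment as a term. Every adjusted p is from edgeR unless DESeq2 1.42.0 or limma-voom (limma 3.58.1) is named. The procedure was tested on simulated data. Alternatives were other scalings, filters and tools, a replicate block, libraries left out, counts divided by 4 and removal of a GC trend (lowess span 0.3). Same-numbered libraries deviated together (r = 0.21, 0.40 and 0.50 for numbers 1, 2 and 3, all above 0.1). Each library correlated best with the library of the other group that shares its number. As the labels do not state a pairing, the treatment test had no term for number, and the replicate block was an alternative.

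The rule for named genes took the 9 genes, then from each companion list the 3 with the smallest p for treatment and for number, the 3 genes most like each in profile with a mean CPM of at least 1, and ACTB and GAPDH. Other genes given values, such as MAX, GRB2, PIM1 and CD33, were chosen after their values were seen. The 9 genes and the lists were chosen with earlier results of these data known. Promoter windows are from RefSeq, and MYC sequence is not reported.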

Additional observations from a re-analysis of the deposited data

How the results depend on the processing

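Of the 7 tested genes, 0 were called between B2 and DMSO under any of 19 alternatives, the smallest adjusted p being 0.777. The number of genes called in the whole table was 0, with 1 by DESeq2, 48 by edgeR with a replicate block and both number 3 libraries left out, and 0 to 1 when single libraries were left out (1 without B2 replicate 2); the cause was not tested. The replicate block on all 6 libraries also called 0 and changed no call on the 9 genes. Genes that differed between replicate numbers were 461, against 956 with RLE factors, 266 with library totals, 2110 at a minimum count of 50, 1673 by DESeq2 and 1288 by limma-voom, and 388 to 4124 when single libraries were left out, the highest without B2 replicate 1 and 1726 without B2 replicate 2. Of the 7 genes, 3 differed between numbers at a minimum count of 50, 2 by DESeq2, 2 by limma-voom and 0 to 3 when single libraries were left out; the cause was not tested. The log2 difference of FLT3 between numbers 3 and 1 was reversed without B2 replicate 1, at 0.61, and ran from -1.57 to 0.61 over single libraries left out. Sign changes under at least 1 alternative befell 54 of 77 named tested genes, and 0 of the 77 were called by treatment under any. With totals in place of TMM factors the median of the 7 genes was 0.02 in place of -0.06. Leaving out 1 library also turned other list medians: the MYB list ran from -0.06 to 0.23 (positive without B2 replicate 1 or 3 or DMSO replicate 1 or 2), FLT3 and KIT signalling from -0.09 to 0.05 (positive without DMSO replicate 2 or 3), the stem and progenitor factors from -0.12 to 0.25 (positive without B2 replicate 3 or DMSO replicate 2) and the surface list from -0.16 to 0.11 (positive without B2 replicate 2 or DMSO replicate 3). KIT was not tested at a minimum count of 50 or with counts divided by 4. Counts were lowest for KIT, CD34 and WT1, at 161, 42 and 4 over all libraries.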
